A study of Ciona robusta with 15 samples.

Results

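Otx, Msx and Tyr are genes of the anterior and dorsal nervous system of the ascidian larva and of its pigment cells. They were taken as the gene models KH.C4.84, KH.C2.957 and KH.C12.469, which are 3 of the 15284 gene models in the deposited tables. They were picked by name and not by a measured value, though with earlier results of these data known. The tables hold KH identifiers without names, and the pairing of each name with its identifier was not checked against an annotation here.

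Otx encodes a homeodomain transcription factor of the anterior neural plate and the sensory vesicle, the brain of the larva, and in ascidians it is also used in the endoderm. Msx encodes a homeodomain factor of the neural plate border and the dorsal midline, which includes the lineage of the pigment cells. Tyr encodes tyrosinase, the enzyme that starts melanin synthesis in the pigment cells of the otolith and the ocellus, the gravity and light sensors in the sensory vesicle.

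RNA of whole Ciona robusta embryos, 300 per sample, was sequenced at Hotta stage 19.5 after growth at 21 °C. Every embryo had been electroporated as a fertilised, dechorionated egg with plasmids under the Etr enhancer, which is active in neural tissue and so directed the encoded proteins there. The Bra group received Etr1>Venus-Bra, the notochord T-box factor. The Bra+Foxa.a group received Etr1>Foxa.a-Myc in addition, the Bra+Mnx group Etr1>Mnx-HA in addition, and the Bra+Foxa.a+Mnx group all 3 plasmids. Foxa.a is a forkhead factor and Mnx a homeodomain factor. The control group carried the same enhancer with a reporter, Etr1>H2B-Venus. Each group had 3 libraries, numbered 1 to 3, called biological replicates in the study's design text. The limma p-values rest on the spread among libraries within groups, moderated by a prior over all gene models. No p-value covers variation beyond these libraries. The study asks how the 3 factors act together in notochord fate, and the genes described here belong to the neural tissue in which those factors were placed. Electroporated plasmids are taken up mosaically, and the share of neural cells that carried them was not analysed here.

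Recovered reads ranged from 17689915 to 26460260 per library, and the counting error of a single value of the 3 genes was 1.81% to 6.12% of it. Plasmid and endogenous reads of an electroporated gene cannot be told apart. The Bra gene averaged 1070 ± 338 normalised reads in Bra libraries, 1208 ± 121 when Foxa.a was added, 1202 ± 104 when Mnx was added, 1541 ± 82.6 with all 3 factors and 653 ± 124 in control libraries (SD, n = 3 each). The Foxa.a gene averaged 12021 ± 400 in Bra+Foxa.a and 13868 ± 940 with all 3 factors. Without its plasmid it averaged 7219 ± 974 in Bra, 8562 ± 1216 in Bra+Mnx and 5544 ± 281 in control. The Mnx gene averaged 1957 ± 860 in Bra+Mnx (1468, 1453 and 2950 in replicates 1, 2 and 3) and 2418 ± 330 with all 3 factors. Without its plasmid it averaged 406 ± 41.1 in Bra, 282 ± 59.7 in Bra+Foxa.a and 483 ± 78.9 in control. The libraries with the same replicate number deviated together from their group means. Differences within a number are therefore given for some comparisons, though not for all. The result of a fit with the number as a block is printed where it changes a call.

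The level of Otx was lower in every group given Bra than in control embryos. Its level, in reads divided by a size factor common to the 15 libraries, was 1888, 2441 and 2036 in Bra replicates 1, 2 and 3, and 1421, 1745 and 1745 in Bra+Foxa.a. It was 1754, 1788 and 1558 in Bra+Mnx and 1414, 1587 and 1382 in Bra+Foxa.a+Mnx. Control embryos had 2677, 3145 and 3350. All 12 libraries given Bra were below all 3 control libraries.

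Otx fell in the 3 groups given more than Bra. With all 3 factors it stood at 47.8% of the control mean (1437 ± 109 against 3008 ± 343 in the deposited table of that comparison, SD, n = 3 each), a log2 fold change of -1.06 ± 0.12 (SE, limma adjusted p = 0.00162). It was at 53.6% of control in Bra+Foxa.a, a log2 fold change of -0.90 ± 0.13 (limma adjusted p = 0.00589). In Bra+Mnx it was at 55.5% of control, a log2 fold change of -0.85 ± 0.12 (limma adjusted p = 0.0123). Without the replicate block that last call depended on single libraries. Its limma adjusted p was 0.0577 without control replicate 2, 0.0598 without control replicate 3 and 0.0505 without Bra+Mnx replicate 2. With the block it held in all 6 fits that left out 1 library (highest limma adjusted p = 0.00202).

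With Bra alone Otx was at 69.3% of control, a log2 fold change of -0.53 ± 0.14 that did not pass (limma adjusted p = 0.171). With the replicate number as a block it did (limma adjusted p = 9.51e-07). The differences within replicate numbers 1, 2 and 3 were -0.51, -0.37 and -0.72. The 4 comparisons share the 3 control libraries.

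**Figure D1:**
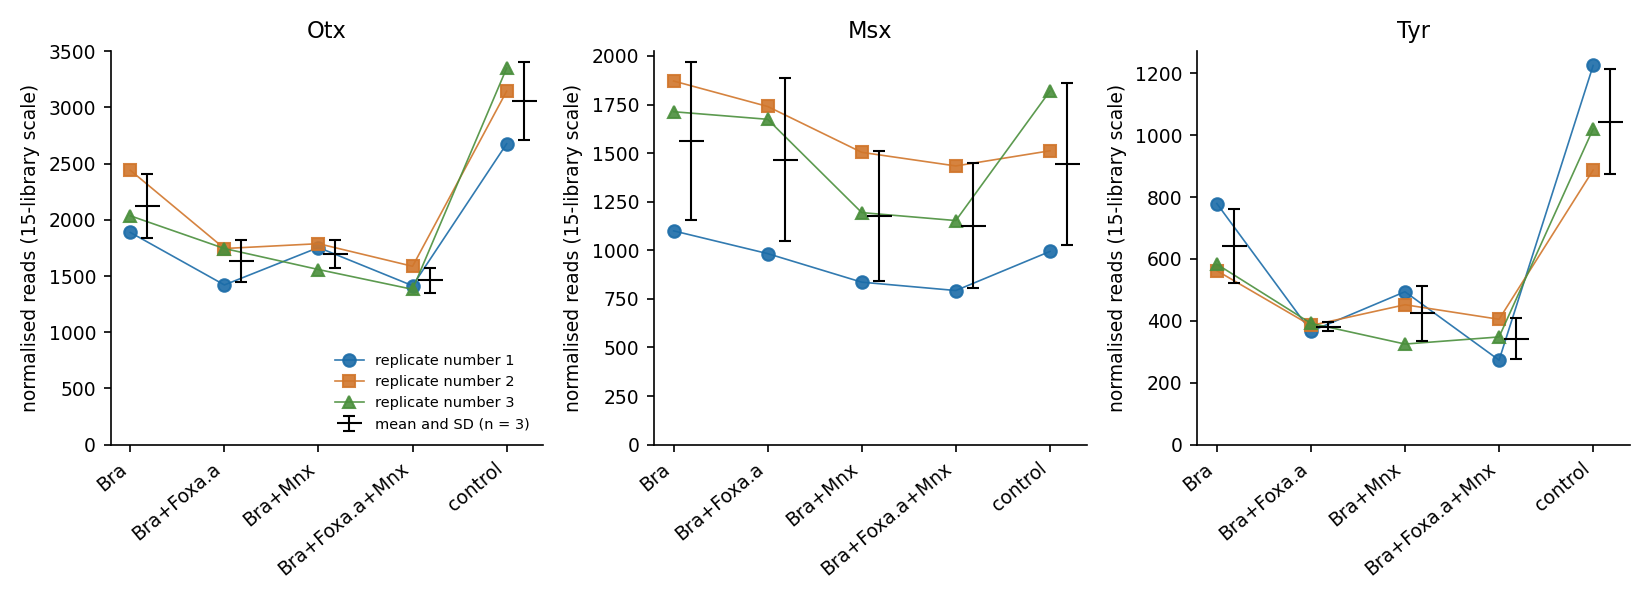
Normalised reads of Otx, Msx and Tyr in each library (linear axes from 0), by group, with libraries of the same replicate number joined by a line and the mean and SD of each group (n = 3) drawn beside them. All 12 libraries given Bra are below all 3 control libraries for Otx and Tyr, while for Msx replicate number 1 is the lowest in each of the 5 groups.

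Tyr was lower than in control in the same 4 groups. It had 779, 562 and 583 normalised reads in Bra replicates 1, 2 and 3, and 366, 385 and 392 in Bra+Foxa.a. It had 494, 452 and 325 in Bra+Mnx and 273, 405 and 348 in Bra+Foxa.a+Mnx. Control embryos had 1225, 887 and 1020. The groups given Bra again did not overlap with control, and the Bra libraries were all above those of the 3 groups given a second factor.

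With all 3 factors Tyr was at 32.8% of the control mean (336 ± 65.2 against 1027 ± 167, SD, n = 3 each), a log2 fold change of -1.61 ± 0.18 (limma adjusted p = 0.00179). In Bra+Foxa.a it was at 36.5% of control, a log2 fold change of -1.44 ± 0.14 (limma adjusted p = 0.00105). In Bra+Mnx it was at 40.5% of control, a log2 fold change of -1.31 ± 0.19 (limma adjusted p = 0.0138). Without the block this call too was lost without control replicate 3 (limma adjusted p = 0.064) or without Bra+Mnx replicate 2 (0.0505). With the block it held in all 6 fits that left out 1 library (highest limma adjusted p = 0.00028). The fall in Bra+Foxa.a+Mnx was uneven between replicate numbers, with log2 differences of -2.16, -1.13 and -1.55 within numbers 1, 2 and 3.

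With Bra alone Tyr was at 61.3% of control, a log2 fold change of -0.71 ± 0.18 (limma adjusted p = 0.136). The fit with the replicate block called it (limma adjusted p = 5.14e-09), and its differences within numbers 1, 2 and 3 were -0.66, -0.66 and -0.81. Without Bra replicate 1, in which Tyr was higher than in Bra replicates 2 and 3, it also passed without the block (limma adjusted p = 0.044). That fit kept control replicate 1, the highest of the controls for Tyr (1225 normalised reads), and so broke the pairing by number. Its value was -0.85, while leaving out the same library with the block gave -0.73.

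Msx differed from Otx and Tyr. It had 1100, 1871 and 1713 normalised reads in Bra replicates 1, 2 and 3, and 983, 1740 and 1674 in Bra+Foxa.a. It had 836, 1504 and 1194 in Bra+Mnx and 793, 1434 and 1153 in Bra+Foxa.a+Mnx. Control embryos had 994, 1512 and 1819. Each group given Bra overlapped with control. The spread followed the replicate number: number 1 was the lowest in all 5 groups, and on average 0.723 below the other two numbers on the log2 scale.

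Msx was at 108% of control in Bra, a log2 fold change of 0.12 ± 0.26 with a 95% interval from -0.48 to 0.72 (limma adjusted p = 1). In Bra+Foxa.a it was at 102%, with a log2 fold change of 0.02 ± 0.28 and an interval from -0.61 to 0.66 (limma adjusted p = 0.998). With the replicate block, which removes the spread between numbers, the intervals narrowed to -0.04 to 0.28 in Bra and to -0.11 to 0.16 in Bra+Foxa.a, with neither called (adjusted p = 0.513 and 0.841).

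In the 2 groups given Mnx the level of Msx was below control within all 3 replicate numbers. Msx was at 81.6% of control in Bra+Mnx, a log2 fold change of -0.29 ± 0.27 (limma adjusted p = 1), and at 78.2% in Bra+Foxa.a+Mnx, a log2 fold change of -0.35 ± 0.26 (limma adjusted p = 0.794). With the replicate block the change in Bra+Foxa.a+Mnx passed (limma adjusted p = 0.0354) and that in Bra+Mnx did not (0.106). The differences within numbers 1, 2 and 3 were -0.26, -0.00864 and -0.61 in Bra+Mnx, and -0.33, -0.07 and -0.66 in Bra+Foxa.a+Mnx. The blocked call was lost, and the value became -0.20, without control replicate 3 (adjusted p = 0.161) or without Bra+Foxa.a+Mnx replicate 3 (0.15). In Bra+Mnx the blocked value was -0.43 and passed without control replicate 2 (0.0227) or without Bra+Mnx replicate 2 (0.0156). In a blocked fit of 2 groups, leaving out either library of a number takes that number out of the difference. Each of these pairs of fits is therefore 1 check, without number 3 or without number 2.

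In Bra embryos limma called 0 of the 3 genes lower, where 0.0703% of all gene models were called. The unadjusted p was 0.00466 for Otx and 0.0033 for Tyr in that comparison, edgeR called neither gene and DESeq2 called both. DESeq2 called 41 of 14212 gene models lower there. In the other comparisons limma called Otx and Tyr, where the share over all gene models was 1.33% for Bra+Foxa.a, 0.394% for Bra+Mnx and 1.16% for all 3 factors. With the replicate block it called 2 of the 3 genes in Bra embryos, against 2.4% of gene models, and the same 2 for Bra+Foxa.a, against 12%, and for Bra+Mnx, against 6.57%. For all 3 factors the block gave 3 of 3, against 6.68%.

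Otx and Tyr were below control without overlap in all 4 comparisons, which held for 3.11% of gene models with Bra alone, 8.19% with Foxa.a added, 6.2% with Mnx added and 7.53% with both. They were also lower within all 3 replicate numbers, as 18.4% of gene models were with Bra alone, 28.9% with Foxa.a added, 25.3% with Mnx added and 22.4% with both, and as Msx was in the last 2 of these. In Bra+Foxa.a+Mnx 0.274% of gene models had a lower log2 fold change than Tyr, 1.67% a lower one than Otx and 11.4% a lower one than Msx.

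**Figure D2:**
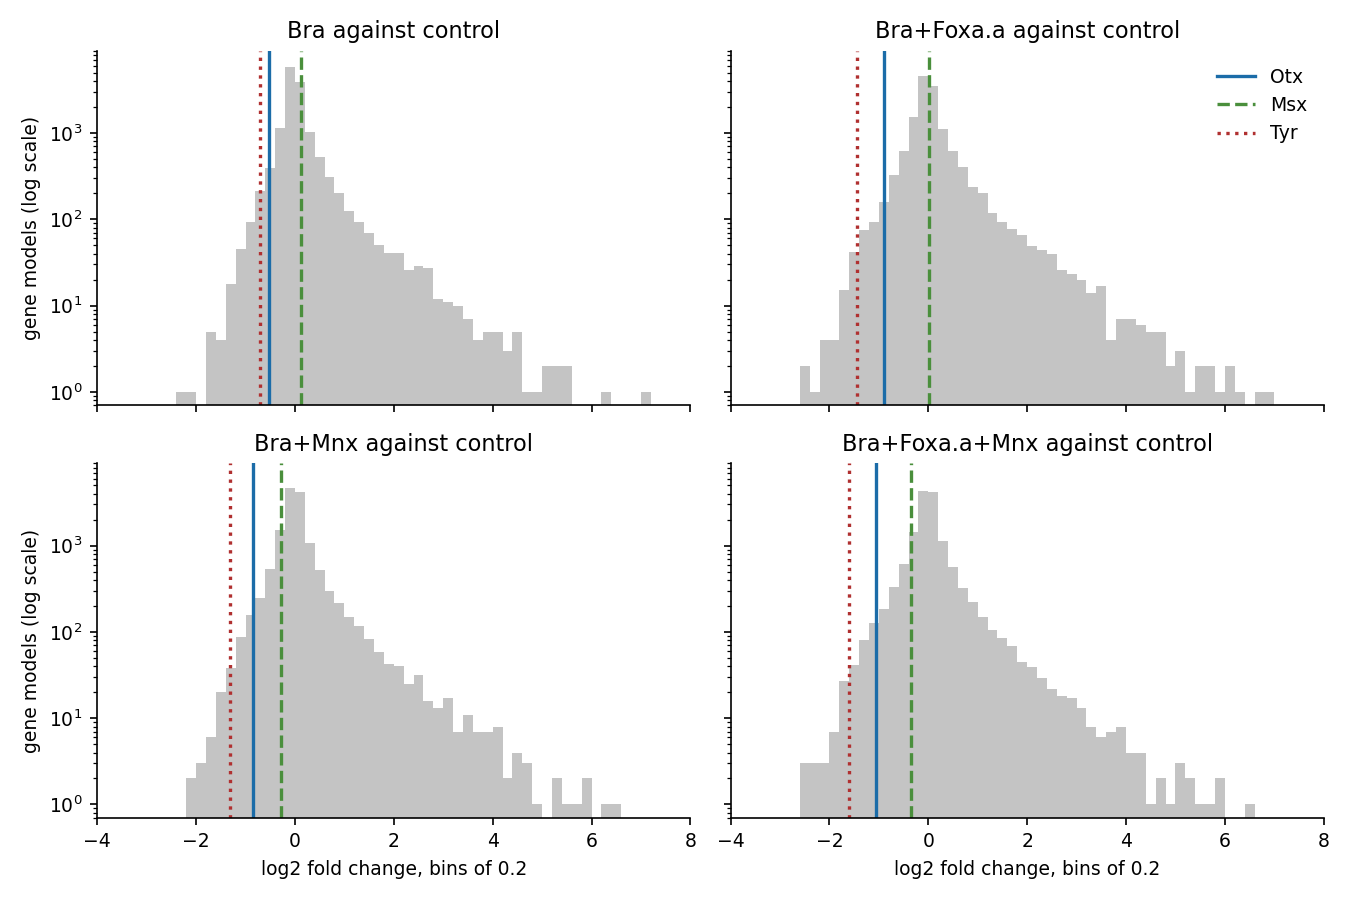
Histograms of the log2 fold change against control of all gene models tested in each of the 4 comparisons (bins of 0.2, counts on a log axis), with lines at Otx, Msx and Tyr. Tyr and Otx sit in the lower tail in all 4 panels, at -1.61 and -1.06 in Bra+Foxa.a+Mnx, while Msx stays between -0.35 and 0.12.

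The 12 libraries given Bra were also set against the 3 control libraries in an exact permutation test that moved the control label within replicate number (two-sided, all arrangements enumerated, smallest possible p = 0.008). The mean log2 difference was -0.83 for Otx and -1.27 for Tyr (each p = 0.008, exact permutation). For Msx it was -0.12 (p = 0.464, exact permutation). The p of Otx and Tyr is the smallest this test can give, and the share of all gene models that reach it was not counted. The same test on ratios of the genes asked whether their responses differed. Msx to Otx was 0.71 higher in embryos given Bra on the log2 scale, and Msx to Tyr 1.14 higher (each p = 0.008, exact permutation, adjusted p = 0.012 over the 3 ratios). Tyr to Otx differed by -0.43 (p = 0.016, exact permutation, adjusted p = 0.016), with -0.73, -0.24 and -0.33 within numbers 1, 2 and 3, and it was -0.28 without number 1.

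The 4 groups given Bra form a square of Foxa.a and Mnx, each given or not given. Otx was lower where Foxa.a was added in all 6 within-number steps, with a mean log2 change of -0.30 ± 0.09 (SE). Limma did not call it without the replicate block (adjusted p = 0.205) and did with it (adjusted p = 0.00353). Tyr changed by -0.52 ± 0.13 with Foxa.a, lower in 5 of 6 steps (limma adjusted p = 0.124, and 0.00631 with the block). Its differences within numbers 1, 2 and 3 were -0.97, -0.35 and -0.24, and the value without Bra+Mnx replicate 3 passed without the block as well (adjusted p = 0.048).

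Msx was called in neither fit when Foxa.a was added. The mean log2 change was -0.08 ± 0.22, with a 95% interval from -0.55 to 0.39, or -0.21 to 0.05 with the block (limma adjusted p = 1, and 0.581 with the block), although all 6 steps, from -0.16 to -0.03, were downward.

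When Mnx was added, Msx was lower in all 6 within-number steps, which ran from -0.54 to -0.28 on the log2 scale. The mean change was -0.39, with differences of -0.35, -0.30 and -0.53 within numbers 1, 2 and 3. Its SE was 0.219 without the replicate block, where limma gave an adjusted p of 1, and 0.0611 with it, where limma gave an adjusted p of 0.000724 and a 95% interval from -0.52 to -0.26. This blocked call held in all 15 fits that each left out 1 library (highest adjusted p = 0.00414).

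Otx also moved down in all 6 steps with Mnx, by -0.24 ± 0.09 on average (limma adjusted p = 0.664, and 0.0268 with the block). The blocked call was lost in 7 of the 15 fits without 1 library. These lacked replicate 2 of Bra, replicates 2 and 3 of Bra+Foxa.a, of Bra+Mnx or of Bra+Foxa.a+Mnx, and gave adjusted p from 0.06 to 0.113. Tyr changed by -0.39 ± 0.13 with Mnx, lower in 5 of 6 steps, and was called neither without the block (limma adjusted p = 0.543) nor with it (0.0679), except that the blocked fit passed without Bra+Foxa.a+Mnx replicate 2 (0.0282).

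With Foxa.a added, limma called 0 of the 3 genes lower, against 0.217% of gene models, and with the block it called Otx and Tyr, against 3.5%. The unadjusted p was 0.00437 for Otx and 0.00167 for Tyr, edgeR called neither and DESeq2 called Tyr. DESeq2 called 110 of 13414 gene models lower there. With Mnx added limma called 0 of the 3, against 0.4% of gene models, and with the block Otx and Msx, against 2.6%. The unadjusted p was 0.0164 for Otx and 0.0116 for Tyr, and neither edgeR nor DESeq2 called any of the 3. A gene lower in all 6 steps was found for 4.21% of gene models with Foxa.a and 4.26% with Mnx. No interaction of Foxa.a and Mnx was called for any of the 3 genes (limma adjusted p = 1 for each, and 0.945 for Otx, 0.986 for Msx and 0.85 for Tyr with the block), and none had an unadjusted p under 0.05. For Tyr its value was 0.43, with a 95% interval from -0.14 to 1.00, or -0.04 to 0.90 with the block. Within numbers 1, 2 and 3 the Tyr interaction was 0.24, 0.39 and 0.67. The level of Bra itself was 0.29 ± 0.13 higher on the log2 scale where Foxa.a was added and 0.28 ± 0.13 higher where Mnx was added (limma adjusted p = 0.675 and 1, and 0.0287 and 0.0537 with the block), and its part in these differences was not tested.

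**Figure D3:**
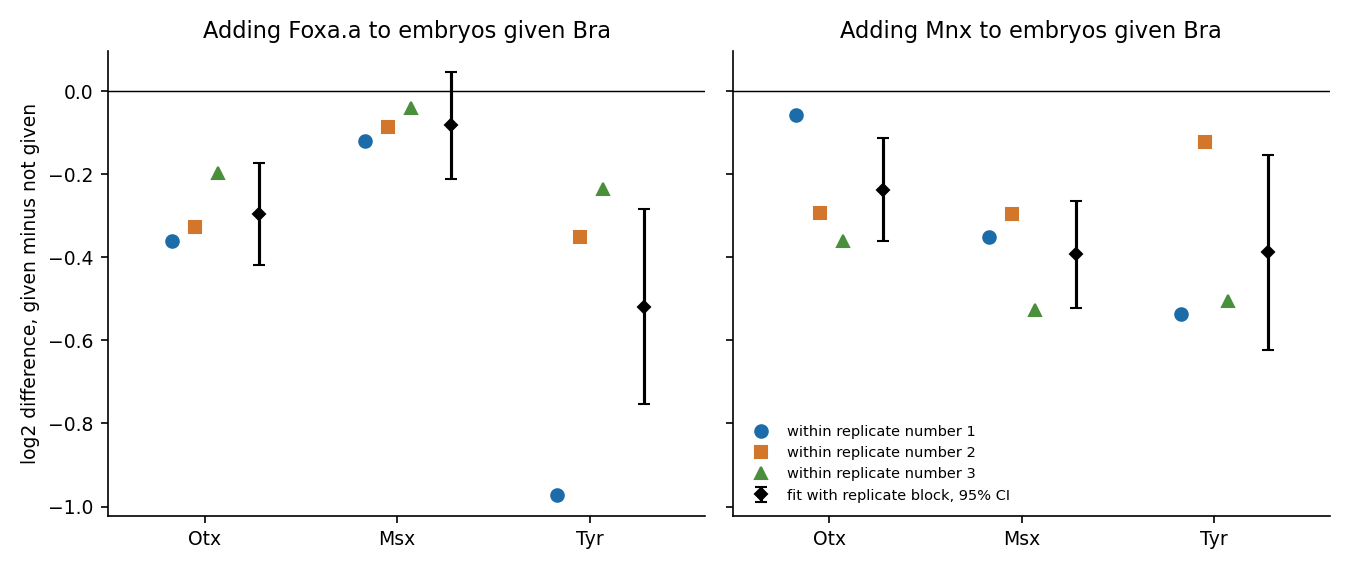
Log2 change of Otx, Msx and Tyr on adding Foxa.a (left) or Mnx (right) to embryos given Bra, within each replicate number (coloured symbols) and in the fit with the replicate block (black, with its 95% interval). All 3 numbers are below 0 for each gene and factor, and for Msx the interval spans 0 with Foxa.a and runs from -0.52 to -0.26 with Mnx.

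Ordered by group mean, Otx and Tyr were lowest in Bra+Foxa.a+Mnx, followed by Bra+Foxa.a, Bra+Mnx, Bra and control. The Otx means were 1461 ± 110, 1637 ± 187, 1700 ± 124, 2122 ± 286 and 3057 ± 345 normalised reads in that order, and those of Tyr 342 ± 65.8, 381 ± 13.7, 424 ± 88, 641 ± 120 and 1044 ± 170 (SD, n = 3 each). The 3 groups given a second factor were not separated from one another for either gene in any pairwise limma fit, with or without the block. For Bra+Foxa.a against Bra+Mnx the 95% interval of the log2 difference was -0.32 to 0.21 for Otx and -0.54 to 0.27 for Tyr.

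Among the 6 pairwise differences between groups given Bra, limma called only 1 without the block in the fit reported. This was Tyr in Bra+Foxa.a+Mnx against Bra (log2 difference -0.91 ± 0.19, adjusted p = 0.0421, against 0.456% of gene models called lower). It was lost without control replicate 3, any Bra or Bra+Foxa.a library, Bra+Mnx replicate 2, or Bra+Foxa.a+Mnx replicates 1 or 3 (highest adjusted p = 0.199), and when libraries were scaled to total reads (-0.88, adjusted p = 0.0631). It held with the block in each of the 15 fits without 1 library (0.0012 with all libraries, at most 0.0152 with 1 left out). With the block, Otx and Msx were also called lower in Bra+Foxa.a+Mnx than in Bra (adjusted p = 0.000447 and 0.00172), against 3.96% of gene models. DESeq2 called Otx lower there without the block (adjusted p = 0.00484), against 162 of 13967 gene models called lower. Of the 8 alternative settings, 4 called Otx there, among them an unblocked limma fit under another setting. The unblocked limma fit reported gave an adjusted p of 0.0696.

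In Bra+Foxa.a against Bra the log2 difference was -0.37 ± 0.12 for Otx and -0.74 ± 0.19 for Tyr. Limma called neither without the block (adjusted p = 0.424 and 0.197, against 0.0771% of gene models called lower) and both with it (0.0121 and 0.00999, against 2.43%). The blocked call of Otx was lost without Bra replicate 2 or Bra+Foxa.a replicates 1 or 2 (highest adjusted p = 0.111), and that of Tyr without replicate 1 of either group (highest adjusted p = 0.0943). DESeq2 called Tyr in this comparison without the block (adjusted p = 0.0192), against 62 of 13138 gene models called lower. In Bra+Mnx against Bra neither Otx nor Tyr was called by limma with all libraries, with or without the block (with it, adjusted p = 0.0796 and 0.0765), and the blocked fit passed for Otx without Bra+Mnx replicate 1 (0.0258) or control replicate 3 (0.049), and for Tyr without Bra+Foxa.a+Mnx replicate 1 (0.0131).

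Msx had another order of means, with 1127 ± 321 in Bra+Foxa.a+Mnx, 1178 ± 335 in Bra+Mnx, 1465 ± 419 in Bra+Foxa.a and 1561 ± 407 in Bra, and 1442 ± 417 in control, between Bra+Foxa.a and Bra+Mnx (SD, n = 3 each). No neighbours in this order were separated without the block. The groups given Mnx were the lower ones on each side of the square: Msx in Bra+Mnx was at 75.5% of Bra, and in Bra+Foxa.a+Mnx at 76.9% of Bra+Foxa.a. Limma called neither difference without the block (adjusted p = 1 for each, against 0.014% and 0.217% of gene models called lower) and both with it (0.0239 and 0.0264, against 0.835% and 1.79%). The first blocked call was lost without any 1 Bra library or Bra+Mnx replicate 3 (highest adjusted p = 0.146). The second was lost without any 1 Bra+Foxa.a library or Bra+Foxa.a+Mnx replicates 1 or 3 (highest adjusted p = 0.197). For Bra+Foxa.a against Bra+Mnx, where Msx was 0.31 higher on the log2 scale, the blocked fit gave an adjusted p of 0.0513, and it passed in 5 of the 15 fits without 1 library (0.0167 to 0.0484), those without control replicates 2 or 3, Bra replicate 2, or Bra+Foxa.a+Mnx replicates 1 or 3.

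A further 5 genes of the nervous system were read beside these. Celf3/4/5/6 is the Etr gene whose enhancer drove the plasmids, Neurog encodes a proneural bHLH factor, Ebf a factor of neuronal differentiation, and Pou4 and Islet homeodomain factors of sensory and motor neurons. Limma called 2 of the 5 lower with Bra alone, 4 with Foxa.a added, 3 with Mnx added and 4 with both, and all 5 in each comparison with the block. Over all gene models the share called lower was 0.0703%, 1.33%, 0.394% and 1.16% in that order of groups, and 2.4%, 12%, 6.57% and 6.68% with the block. The median log2 fold change of the 5 genes was -0.65, -1.28, -1.06 and -1.44 in that order of groups, while the median of all gene models was between -0.02 and 0.00. Celf3/4/5/6 alone had -0.76, -1.28, -1.20 and -1.44, which lie between the values of Otx and Tyr in the last 3 comparisons. Summed over the 5 genes, normalised reads were 6372 to 7858 with Bra alone, 4067 to 5152 with Foxa.a added, 4721 to 5432 with Mnx added, 3881 to 5103 with both and 10245 to 12244 in control libraries. In RNA of whole embryos, fewer neural or pigment cells and less of these RNAs per cell cannot be told apart.

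**Figure D4:**
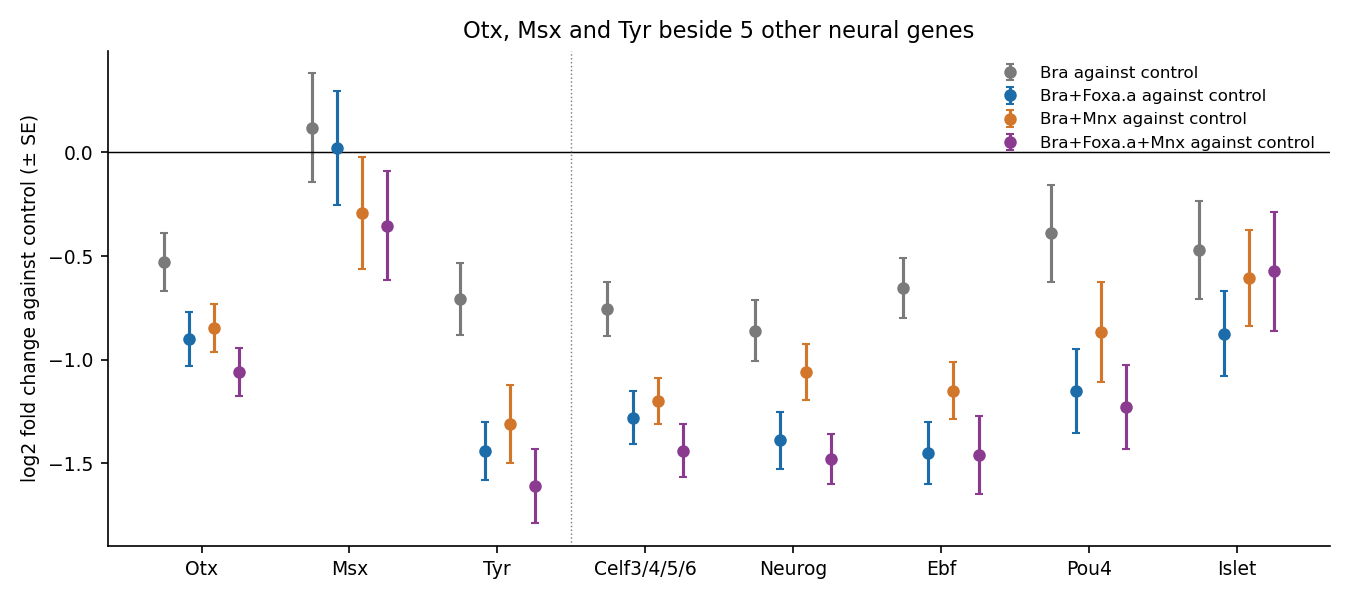
Log2 fold change against control with its SE for Otx, Msx, Tyr and 5 other neural genes, in the 4 groups given Bra. All values but those of Msx in Bra and in Bra+Foxa.a are below 0, and Tyr reaches -1.61 in Bra+Foxa.a+Mnx.

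Markers of other tissues were Tbx2/3 (notochord), Mrf (muscle), and Nkx2-5, Hand-r and Foxf (heart). Their summed level was 10067 to 12918 normalised reads with Bra alone, 10124 to 11830 with Foxa.a added, 9668 to 10304 with Mnx added, 10688 to 11850 with both and 10040 to 11702 in control libraries, and none was at 0 in any library. Limma called Tbx2/3 higher in Bra+Foxa.a and in Bra+Foxa.a+Mnx (log2 fold changes of 0.58 and 0.64), where 528 of 14254 and 401 of 14213 gene models were called higher. Without the block the lowest adjusted p of a marker below control was 0.0519, that of Mrf with Foxa.a added. With the block limma called 1 higher and 0 lower with Bra alone, 2 higher and 2 lower with Foxa.a added, 1 higher and 3 lower with Mnx added, and 2 higher and 1 lower with both. Over all gene models the block called 1010 higher and 341 lower of 14221 with Bra alone, and 1768 and 1704 of 14254 with Foxa.a added. It called 922 and 934 of 14222 with Mnx added, and 1117 and 949 of 14213 with both. Mrf had a log2 fold change of -0.45 with Foxa.a added, -0.46 with Mnx added and -0.43 with both, and Nkx2-5 one of 0.00789, -0.48 and -0.23. The other heart markers went different ways. In the same groups Hand-r averaged 570 ± 78.2, 457 ± 78.2 and 560 ± 142 normalised reads, above 427 ± 88.2 in control. Foxf averaged 2853 ± 421, 2822 ± 254 and 3049 ± 275, below 3413 ± 478 in control (SD, n = 3 each). The part of these markers in the result for Msx was not tested.

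The gene models whose profile over the 15 libraries was most like that of each gene were found by the root-mean-square difference of log2 levels after each profile was centred on its mean. For Tyr these were KH.C5.485 and KH.C8.537, at 0.108 and 0.142, where the median over 9594 gene models was 0.646. KH.C5.485 had a mean of 1111 ± 236 normalised reads with Bra alone, 709 ± 57.1 with Foxa.a added, 772 ± 202 with Mnx added, 597 ± 72.0 with both and 1920 ± 221 in control libraries (SD, n = 3 each). Both stayed the nearest 2 when the mean of each replicate number was subtracted from the profiles and when gene models with fewer reads were admitted.

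For Otx the nearest were KH.C3.716 at 0.110 and KH.C9.417 at 0.113 (median 0.434). With replicate numbers subtracted KH.C8.101 came first at 0.065, ahead of KH.C9.417, and KH.C3.716 was no longer among the nearest 2. For Msx they were KH.C9.198 and KH.C2.628 at 0.163 and 0.167 (median 0.449), and both were replaced by other gene models once replicate numbers were subtracted. The files used here give these models no name. The likeness is a description of 15 libraries, and the profiles compared share the depth and replicate number of each library.

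**Figure D5:**
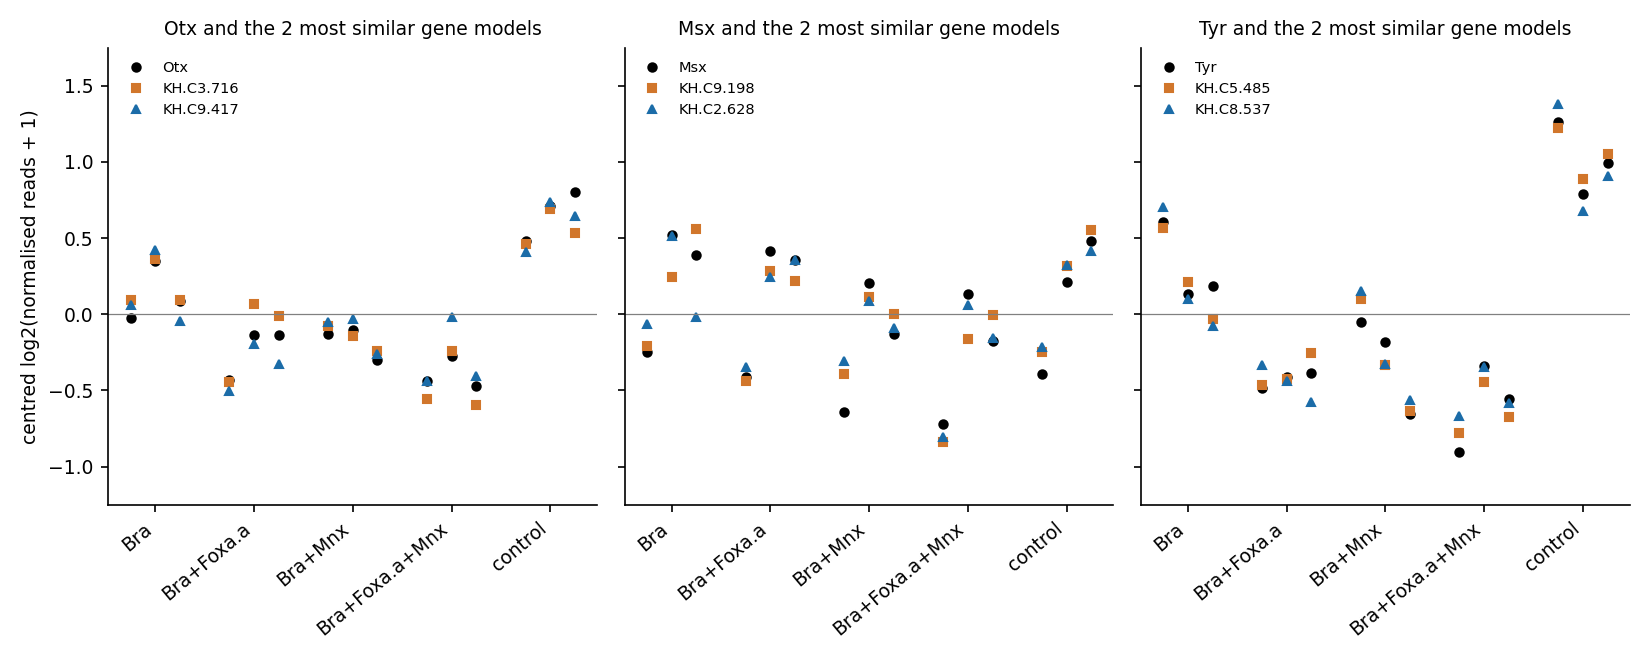
Centred log2 levels of Otx, Msx and Tyr (black circles) and of the 2 gene models most like each (orange squares and blue triangles) in the 15 libraries, with replicates 1 to 3 from left to right within a group. The Tyr panel shows the closest match relative to the median of all gene models, with differences of 0.108 and 0.142.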

How the data were processed

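Whole embryos were profiled by RNA sequencing in 15 libraries, in 5 groups of 3, from a stranded mRNA kit per the labels. Per the submitters' processing notes, the tools were TopHat2 and DESeq (version 1.8.1). The genome build, counter and strand setting behind them are not given in the sources here, and the identifiers are KH2012 gene models per the file headers. The authors deposited 4 tables, 1 for each group given Bra with the same 3 controls, and their values are a signal: gene read counts normalised to library size per the file headers, scaled in each table separately. The 24 columns of log values were not used.

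Each column of the deposited signal held whole multiples of 1 step, which gave whole reads for 100% of values within 0.01, and the control reads were identical in 9 of 9 comparisons between tables. Within every group the libraries differed beyond counting noise (lowest chi-square over its degrees of freedom 14.4), and none was treated as a copy. Intervals of counting error cover counting only, since molecules carried no identifiers.

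The comparisons with control used limma 3.58.1 in R 4.3.3 within each table, on log2(value + 1), for gene models with a mean of at least 1, with an intensity-dependent prior and Benjamini-Hochberg adjustment over all of them. Adjusted p under 0.05 was called. Fold changes are on that scale, which understates those of genes with few reads. Comparisons among groups given Bra used 1 such fit of 15 libraries, on recovered reads over median-of-ratios size factors. A negative difference means lower in the group named first or with the factor added. Alternatives were a replicate block, pseudocounts of 0.5 and 8, no filter, scaling to total reads, edgeR 4.0.16 and DESeq2 1.42.0 on recovered reads, and leaving out each library. The count test of edgeR called 203, 716, 280 and 539 gene models against control with Bra alone, with Foxa.a added, with Mnx added and with both, where limma called 212, 718, 265 and 566. The fits were tested on simulated data that held no shift common to a replicate number. That test cannot say how the calls with or without the block behave in these data.

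Sample titles give the replicate numbers. Deviations from group means over 14260 gene models correlated at 0.545 to 0.716 in the 30 pairs of libraries with the same number and at -0.436 to -0.125 in the 60 other pairs, so the numbers were taken to pair the libraries.

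The 3 genes, the other genes named and the tests were chosen with earlier results of these data known. The genes named are those 3, 5 other neural genes, 5 markers of other tissues, the electroporated genes, and the 2 gene models with the profile most like each of the 3, among models with a mean of at least 100 normalised reads.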

Additional observations from a re-analysis of the deposited data

How the results depend on the processing

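Under every alternative run, Otx and Tyr stayed below control in all 4 comparisons. The replicate block, which uses the pairing by number, ended none of the calls on the 3 genes. Against control and for added factors it turned these uncalled values into calls: Otx in Bra against control (-0.53, edgeR with the block -0.54), with Foxa.a added (-0.30, edgeR -0.30) and with Mnx added (-0.24, edgeR -0.24), Msx in Bra+Foxa.a+Mnx against control (-0.35, edgeR -0.35) and with Mnx added (-0.39, edgeR -0.39), and Tyr in Bra against control (-0.71, edgeR -0.72) and with Foxa.a added (-0.52, edgeR -0.54). DESeq2 without the block called Otx (-0.53) and Tyr (-0.70) in Bra against control and Tyr with Foxa.a added (-0.53). Among groups given Bra, the block also called Otx and Tyr in Bra+Foxa.a against Bra, Otx and Msx with all 3 factors against Bra, Msx in Bra+Mnx against Bra and Msx with all 3 factors against Bra+Foxa.a, edgeR with the block in addition Msx in Bra+Foxa.a against Bra+Mnx (0.31) and Tyr in Bra+Mnx against Bra (-0.59), and DESeq2 without it Otx with all 3 factors against Bra (-0.54) and Tyr in Bra+Foxa.a against Bra (-0.75). One fit of all libraries called Otx in Bra against control (-0.53), and with the block Otx (-0.53) and Tyr (-0.70) there, as well as Msx in Bra+Mnx (-0.29) and with all 3 factors (-0.35). Scaling to total reads turned the uncalled interaction for Msx to -0.0346 and ended the call of Tyr with all 3 factors against Bra (-0.88). Otx with all 3 factors against Bra was also called in an unblocked limma fit under another setting. Beyond the block, the cause of these shifts was not tested.

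Leaving out 1 library, with and without the block, gave these ranges against control: for Otx -0.64 to -0.44 in Bra and -0.96 to -0.72 in Bra+Mnx, for Tyr -0.85 to -0.59 in Bra and -1.48 to -1.13 in Bra+Mnx, and for Msx -0.13 to 0.36 in Bra, -0.22 to 0.29 in Bra+Foxa.a, -0.54 to -0.0612 in Bra+Mnx and -0.60 to -0.12 with all 3 factors. With Foxa.a added the ranges were -0.34 to -0.24 for Otx, -0.61 to -0.40 for Tyr and -0.20 to 0.0501 for Msx. With Mnx added they were -0.29 to -0.18 for Otx, -0.47 to -0.27 for Tyr and -0.52 to -0.28 for Msx, and the interaction for Msx was -0.23 to 0.27. Uncalled pairwise differences that changed sign were Otx in Bra+Foxa.a against Bra+Mnx (-0.13 to 0.0405, and 0.0389 with the block), Msx in Bra+Foxa.a against Bra (-0.33 to 0.17), Msx with all 3 factors against Bra+Mnx (-0.29 to 0.17) and Tyr with all 3 factors against Bra+Foxa.a (-0.34 to 0.07).

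Gene models called against control were 1351 with the block and 411 by DESeq2 for Bra (212 in the fit reported), 3472 and 1094 for Bra+Foxa.a (718), 1856 and 616 for Bra+Mnx (265), and 2066 and 898 for all 3 factors (566). With Foxa.a added they were 971 and 274 (103), and with Mnx added 513 and 158 (66). The counting error of the 3 genes was at most 6.12% of a value.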
